A study of Mus musculus with 6 samples.

Results

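Histone deacetylases (HDACs) remove acetyl groups from histone tails and are recruited to genes by corepressors. The class I enzymes encoded by Hdac1 and Hdac2 act in the SIN3, CoREST and MiDAC complexes, whereas the class I enzyme encoded by Hdac3 depends for its activity on NCoR complexes. The class IIa enzymes encoded by Hdac4, Hdac5 and Hdac7 bind MEF2 transcription factors and leave the nucleus with 14-3-3 proteins once kinases phosphorylate them, a step that T cell receptor (TCR) signals trigger. Hdac7 and Hdac3 are known regulators of invariant natural killer T (iNKT) cell development. Sirt1 encodes an NAD-dependent deacetylase of another family. The genes described here are these 7 deacetylases together with the corepressor Ncor1 and the SIN3 scaffold Sin3a. They were chosen by symbol, 9 of the 48397 genes in the count table, and all 9 passed the filter on low counts among 12312 genes tested.

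Their mRNA was measured by RNA-Seq in stage 0 iNKT cells, the earliest thymic precursors after positive selection, sorted as PBS57-CD1d tetramer+, CD44-, CD24+, CD69+, CD4lo/- and CD8- cells. The 2 genotypes were BALB/c, which is wild type, and SKG, which carries a hypomorphic mutation of the TCR kinase gene Zap70 on the BALB/c background in all cells. Each genotype had 3 libraries, and each library came from about 1000 cells sorted from the thymi of 3 mice, pooled at 8 to 10 weeks of age, and each replicate is therefore such a pool. The comparison asks whether weaker TCR signalling accompanied different mRNA levels of these genes just after selection. A positive log2 fold change means a higher level in SKG, and CPM stands for the reads of a gene scaled by the library total after TMM normalization.

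Between 37176544 and 43115544 reads per library lay on genes, whereas the genes with at least 10 reads numbered from 10835 in SKG replicate 3 and 11415 in BALB/c replicate 1 to 14791 in SKG replicate 1. Zap70 itself had 498, 472 and 374 CPM in the BALB/c libraries and 322, 338 and 409 CPM in the SKG libraries, and gene counts cannot show a point mutation. Summed over 7 T cell genes, expression lay at 6351 to 8810 CPM in BALB/c and 6400 to 8346 CPM in SKG. The summed level of 5 sort and selection markers (Cd24a, Cd69, Egr1, Egr2 and Cd5) was higher in each BALB/c library (3805 to 4563 CPM) than in any SKG library (2343 to 2726 CPM), and the part of this difference in the values given here was not tested. Egr1, Egr2 and Cd69 carried it, since Cd5 overlapped between genotypes (546 to 641 CPM in BALB/c, 525 to 625 CPM in SKG) and the sort marker Cd24a was at 52.4, 7.31 and 15.6 CPM in BALB/c and 31.9, 88.6 and 90.7 CPM in SKG. Of 6 mature iNKT markers, Tbx21 was at 0 in all 6 libraries and Cd44 at 0.103 to 14.5 CPM, whereas Il2rb (146 to 297 CPM) and Zbtb16 (83.3 to 178 CPM) were present in every library, and the list summed to 308 to 459 CPM with overlapping genotypes. Summed myeloid markers reached 228 CPM in BALB/c replicate 1 and 277 CPM in SKG replicate 3 against 75.3 to 101 CPM in the other 4 libraries. In these 2 libraries the sum was mainly Cst3 (163 and 131 CPM) and Lyz2 (53.7 and 107 CPM). Of the same list, Cd68 was at 11.1 and 28.1 CPM in them, against 3.10 to 5.51 CPM in the other 4. Fcgr3 was at 10.6 CPM in SKG replicate 3, at 0 in BALB/c replicate 1 and at most at 0.974 CPM in the other 4. Csf1r, Itgam and Adgre1 were at 0 in both BALB/c replicate 1 and SKG replicate 3. Summed markers of double-positive thymocytes, B cells, erythroid cells and thymic epithelium lay at 43.0 to 423, 0.027 to 21.4, 0.027 to 69.7 and 10.0 to 86.9 CPM. BALB/c replicate 1 had the highest double-positive and erythroid sums, 423 and 69.7 CPM, against at most 172 and 1.57 CPM in the other libraries. The part of this in the values of that library was not tested. The ranges of all 5 of these other-cell lists overlapped between genotypes. In bulk libraries fewer expressing cells and less RNA per cell cannot be told apart.

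No difference between SKG and BALB/c stage 0 cells passed the test for any of the 9 genes. By edgeR's quasi-likelihood test with Benjamini-Hochberg adjustment, 0 of 9 passed an FDR of 0.1 with a fold change of at least 1.5, where 0 of all 12312 genes tested (0%) passed. Unadjusted p-values under 0.05 were found for 0 of 9, against 5.45% of all genes tested. The libraries of the genotypes overlapped for all 9, so 0 of 9 were separated, against 13.9% of all genes tested. DESeq2 without shrinkage called 0 of the 9 (2.58% of all genes it tested), DESeq2 with shrunken fold changes called 0 (1.67%), and limma-voom called 0 of the 9 and 0 of all genes tested. The median log2 fold change of the 9 was 0.14 with 5 higher in SKG, and over all genes tested it was -0.02 with 49.0% higher in SKG. An exact permutation test of 3 libraries against 3 has 0.1 as its smallest p.

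**Figure D1:**
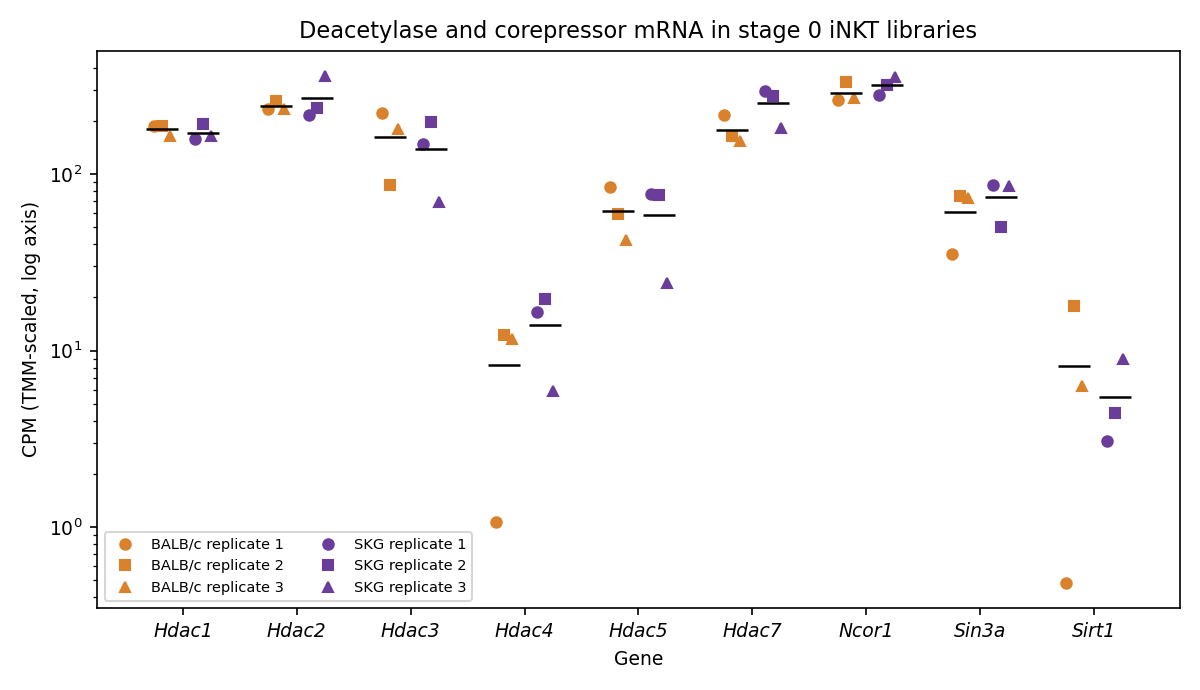
Level of each gene in CPM (log axis) in the 3 BALB/c (orange) and 3 SKG (purple) libraries; the symbol gives the replicate and the black bar the mean of a genotype. Hdac1, Hdac2 and Ncor1 form tight clusters above 150 CPM, whereas Hdac4 and Sirt1 lie below 20 CPM and spread widely, and the genotypes overlap for every gene.

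Among the class I genes, Hdac1 (chr4:129516104-129542713, minus strand, GRCm38) had 187, 188 and 164 CPM in BALB/c and 158, 191 and 163 CPM in SKG. Its libraries were close to each other and interleaved between genotypes. The means were 180 ± 13.8 CPM in BALB/c and 171 ± 17.7 CPM in SKG (SD, n = 3 each), a log2 fold change of -0.07 with a 95% interval from -0.45 to 0.31. That interval lies inside a 1.5-fold change in either direction.

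The Hdac1 count is uncertain because the genome holds near copies of its mRNA. Of 3 copies found, AC125456.1 (96.3% identical) and Gm4864 (94.6%) were matched to no row of the count table. The processed pseudogene Gm10093 on chromosome 17 differs from the Hdac1 mRNA at 9 of 1444 aligned bases, and 56.4% of the 50-base windows of the Hdac1 mRNA model, the length of a read, occur unchanged in Gm10093 and 58.7% in any of the 3 copies. Both sequences are printed over coding positions 368 to 487 of Hdac1, 5′ to 3′ from GENCODE transcripts, because this stretch holds 6 of the 9 differences (in capitals), and Gm10093 is at chr17:78491949-78492068 on the plus strand there.
Hdac1: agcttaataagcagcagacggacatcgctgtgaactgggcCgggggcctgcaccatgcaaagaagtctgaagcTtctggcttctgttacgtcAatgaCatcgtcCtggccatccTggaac
Gm10093: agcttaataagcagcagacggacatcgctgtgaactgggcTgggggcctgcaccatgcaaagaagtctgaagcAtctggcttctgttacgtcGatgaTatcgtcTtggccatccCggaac
A read from an identical window has more than one equal placement, and the counting kept reads only from a mapping quality of 10 upwards. Of the reads on Hdac1 and Gm10093 together, Gm10093 held 26.2%, 26.1% and 25.6% in BALB/c and 25.1%, 24.4% and 26.7% in SKG. This share hardly moved between libraries. The summed level of both was 243 ± 19.7 CPM in BALB/c and 229 ± 21.4 CPM in SKG (SD, n = 3 each), and their separate log2 fold changes were -0.07 and -0.12.

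Hdac2 (chr10:36974544-37001889, plus strand), the usual partner of Hdac1, had 235, 261 and 233 CPM in BALB/c and 217, 238 and 359 CPM in SKG. Only SKG replicate 3 stood above the BALB/c libraries. Its log2 fold change was 0.16 (95% interval -0.37 to 0.69) and became -0.082 without that library. The ratio of Hdac1 to Hdac2 per length was 1.04, 0.936 and 0.913 in BALB/c and 0.947, 1.04 and 0.591 in SKG, the lowest value being again that of SKG replicate 3.

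Hdac3, on chromosome 18, had 222, 86.3 and 181 CPM in BALB/c and 147, 197 and 69.4 CPM in SKG. One library of each genotype was low, BALB/c replicate 2 with 3201 reads and SKG replicate 3 with 2508 reads, against 5942 to 9151 reads in the other 4. The log2 fold change was -0.24 (95% interval -1.38 to 0.90), and leaving out BALB/c replicate 1 or SKG replicate 3 turned it to 0.05 or 0.094. Per length, Hdac3 made up from 11.8% to 33.9% of the sum of Hdac1, Hdac2 and Hdac3, while that sum itself stayed between 131 and 162 RPKM, the CPM per kilobase of merged exons.

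By root mean square difference between log2 CPM profiles centred on their means over the 6 libraries, the genes most like Hdac3 were Crcp (0.175), Abhd2 (0.185) and Prkrip1 (0.196). The median over all genes tested was 0.907, but these 3 were picked as the smallest values and lie below it by construction. Crcp, for example, had 76.3, 29.1 and 46.9 CPM in BALB/c and 55.4, 63.0 and 20.1 CPM in SKG. Like Hdac3, by whose profile it was picked, it was lowest in BALB/c replicate 2 and SKG replicate 3.

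Of the class IIa genes, Hdac7 (chr15:97792664-97844502, minus strand) had the lowest p of the 9. Its libraries held 216, 165 and 155 CPM in BALB/c and 295, 277 and 182 CPM in SKG. SKG replicates 1 and 2 lay above all BALB/c libraries, but SKG replicate 3 lay below BALB/c replicate 1. The means were 178 ± 32.6 CPM in BALB/c and 251 ± 60.8 CPM in SKG (SD, n = 3 each). The log2 fold change was 0.49 (SE 0.24, 95% interval -0.08 to 1.07), which is 1.41-fold, and edgeR's adjusted p was 0.952. Leaving out SKG replicate 3 gave 0.69 with an edgeR adjusted p of 0.831, and leaving out SKG replicate 1 gave 0.36. SKG replicate 3 had the fewest genes detected and the highest summed myeloid markers, mainly Cst3 and Lyz2. The part of that library's composition in the Hdac7 value was not tested.

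The profiles most like that of Hdac7, by the same measure, were those of Shoc2 (0.0751), the microRNA gene Mir142b (0.0766) and Spin1 (0.104). They too were picked as the smallest values, so they lie below the median of 0.721 over all genes tested by construction. Shoc2, which encodes a scaffold of the RAS pathway, had 95.3, 68.0 and 71.8 CPM in BALB/c and 124, 110 and 80.5 CPM in SKG. Mir142b rests on 0.199 to 0.422 CPM per library and is thereby measured far less precisely.

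Hdac5 (chr11:102194432-102230166, minus strand) had 83.9, 59.5 and 42.1 CPM in BALB/c and 76.8, 75.7 and 24.2 CPM in SKG. The highest value was in BALB/c replicate 1 and the lowest in SKG replicate 3, so that the range of SKG enclosed most of that of BALB/c. Its log2 fold change was -0.07 (95% interval -1.29 to 1.15), and leaving out BALB/c replicate 1 or SKG replicate 3 turned it to 0.22 or 0.32.

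Hdac4 (chr1:91928779-92195699, minus strand) was the scarcest class IIa mRNA, with 1.07, 12.2 and 11.7 CPM in BALB/c and 16.5, 19.5 and 5.86 CPM in SKG. BALB/c replicate 1, with 44 reads, lay far below the other libraries, which had 212 to 757 reads. On the log2 scale the fold change was 0.74 with a 95% interval from -1.80 to 3.29, and it was 0.23 without BALB/c replicate 1. The opposite-strand gene Gm26720 shares 22.4% of the exon bases of Hdac4 and had 0 reads in all libraries, and reads were counted without strand. These 0 reads do not show how reads on the shared bases were assigned. The part of the overlap in the low Hdac4 level was not tested.

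Per length, Hdac4, Hdac5 and Hdac7 together made up 20.5%, 19.3% and 16.5% of the sum of these 3 genes and Hdac1 to Hdac3 in BALB/c and 29.0%, 24.5% and 17.2% in SKG. Again SKG replicates 1 and 2 were above and replicate 3 within the BALB/c range. With Hdac8 added to class I and Hdac9 to class IIa, the class IIa share was 16.6% to 21.2% in BALB/c and 17.6% to 29.5% in SKG. Hdac7 was the main class IIa mRNA in every library, with 69.8% to 77.9% of the sum of all 4 class IIa genes in BALB/c and 78.6% to 85.4% in SKG. The SKG libraries lay above the BALB/c libraries in this share by a narrow margin, and SKG replicate 3, where Hdac5 and Hdac4 were low within SKG, had the highest share. Without Hdac9 the share was 76.4% to 80.5% in BALB/c and 80.7% to 89.6% in SKG. By level, 13.9% of all genes tested had separated libraries. The share was given no test.

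**Figure D2:**
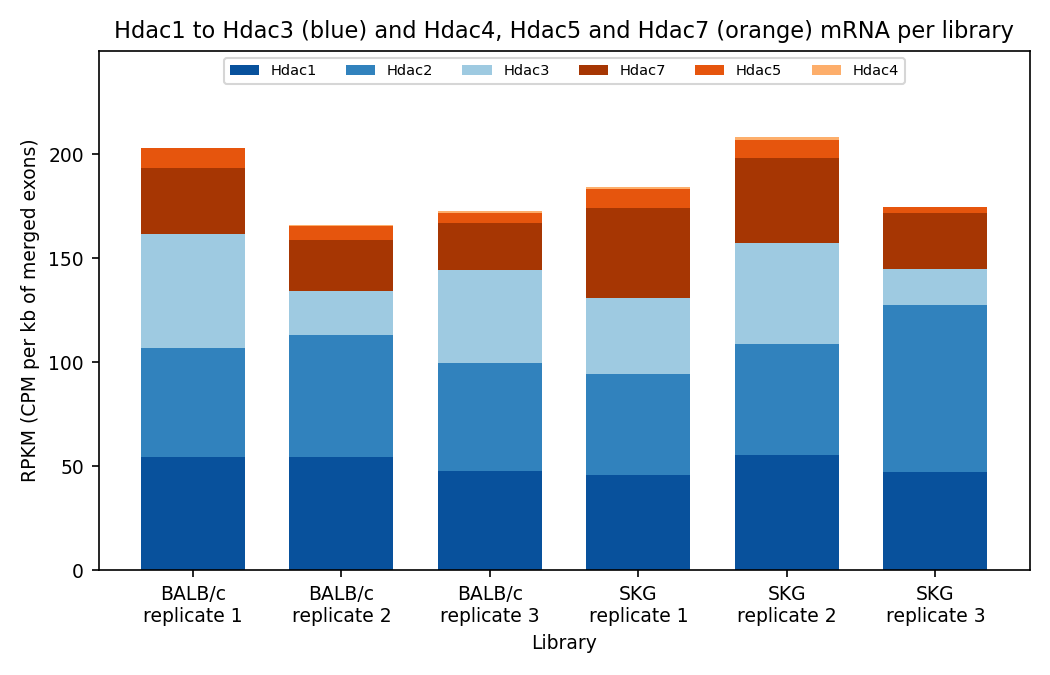
Stacked RPKM (y axis, from 0) of the class I genes Hdac1, Hdac2 and Hdac3 (blue) and the class IIa genes Hdac7, Hdac5 and Hdac4 (orange) in each of the 6 libraries (x axis). The blue part is the larger in every bar, Hdac3 is thin in BALB/c replicate 2 and SKG replicate 3, and Hdac7 makes up most of the orange part throughout.

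The corepressor Ncor1 (chr11:62316426-62458541, minus strand) had 262, 333 and 271 CPM in BALB/c and 279, 320 and 354 CPM in SKG. Its values interleaved, with means of 289 ± 38.8 CPM in BALB/c and 318 ± 37.7 CPM in SKG (SD, n = 3 each). Its log2 fold change was 0.14 with a 95% interval from -0.26 to 0.53, inside a 1.5-fold change in either direction as for Hdac1.

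Sin3a (chr9:57072040-57128366, plus strand), the scaffold that joins HDAC1 and HDAC2 to transcription factors, had 35.4, 75.2 and 72.8 CPM in BALB/c and 86.4, 49.9 and 85.7 CPM in SKG. One library of each genotype was low, BALB/c replicate 1 and SKG replicate 2, and the latter lay below the other BALB/c libraries. Its log2 fold change of 0.28 (95% interval -0.67 to 1.22) shrank to 0.00 without BALB/c replicate 1.

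Sirt1 (chr10:63319005-63381704, minus strand) had 0.48, 17.8 and 6.29 CPM in BALB/c and 3.08, 4.40 and 8.90 CPM in SKG. In BALB/c its reads ran from 20 to 662, a 36.8-fold range of CPM that enclosed the whole SKG range. On the log2 scale the fold change was -0.59 with a 95% interval from -3.67 to 2.49, and it was 0.67 without BALB/c replicate 2, so no direction can be given.

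**Figure D3:**
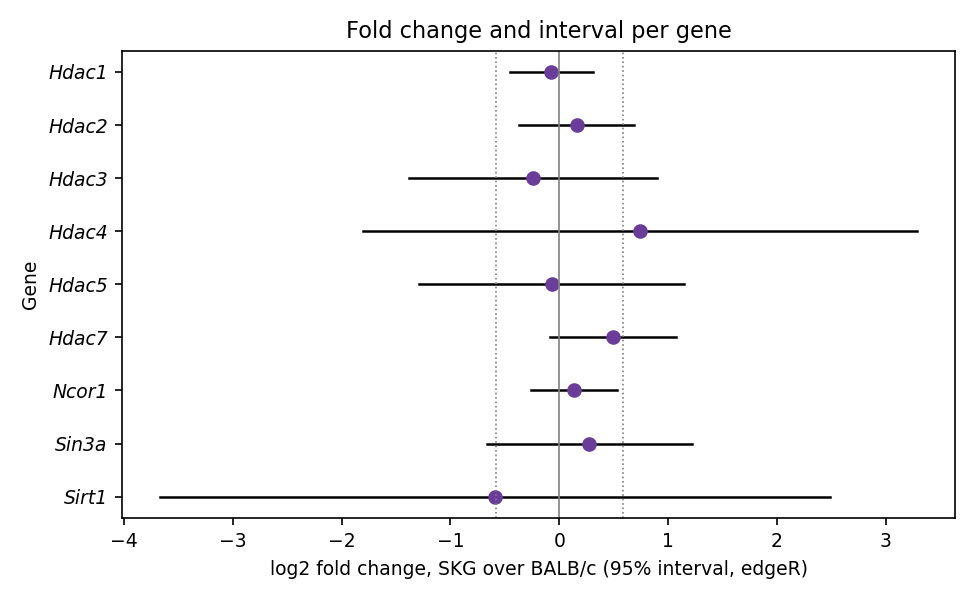
Log2 fold change of SKG over BALB/c (x axis) for each of the 9 genes (y axis) with its 95% interval from the edgeR fit; dotted lines mark 1.5-fold in either direction. All intervals cross 0; those of Hdac1 and Ncor1 stay within the dotted lines, and those of Hdac4 and Sirt1 are the widest.

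Compared per length, the mean RPKM over all 6 libraries followed the order Hdac2 (57.4), Hdac1 (50.9), Hdac3 (37.1), Hdac7 (31.8), Ncor1 (23.7), Sin3a (12.5), Hdac5 (6.88), Sirt1 (1.28) and Hdac4 (0.704). Hdac2 lay above 91.8% of the genes tested and Hdac4 above 11.0%. Neighbours in this order overlapped in their ranges over the libraries except Ncor1 and Sin3a, whose ranges were 20.5 to 27.6 and 6.58 to 16.0 RPKM. The place of Hdac1 rests on reads that could not be split with certainty from these copies. Merged exons can also be longer than an mRNA, as for Hdac1 with 3445 merged exon bases and an mRNA model of 2038 bases. This order, and the ratios and shares per length above, depend on the length taken.

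The 9 genes varied widely in their spread between libraries of a genotype. Within genotypes, the SD of log2 CPM was 0.13 for Hdac1, 0.18 for Ncor1, 0.28 for Hdac2 and 0.32 for Hdac7, so that 1.78%, 5.18%, 15.9% and 20.8% of the genes tested were steadier. It was 0.54 for Sin3a, 0.75 for Hdac3 and 0.76 for Hdac5, around the median of 0.64 over all genes. Hdac4 and Sirt1 had 1.55 and 1.92, and they were also the least abundant. BALB/c replicate 1 gave the lowest value of the 6 libraries for 4 of the 9 genes, although it gave the highest for 2 others.

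**Figure D4:**
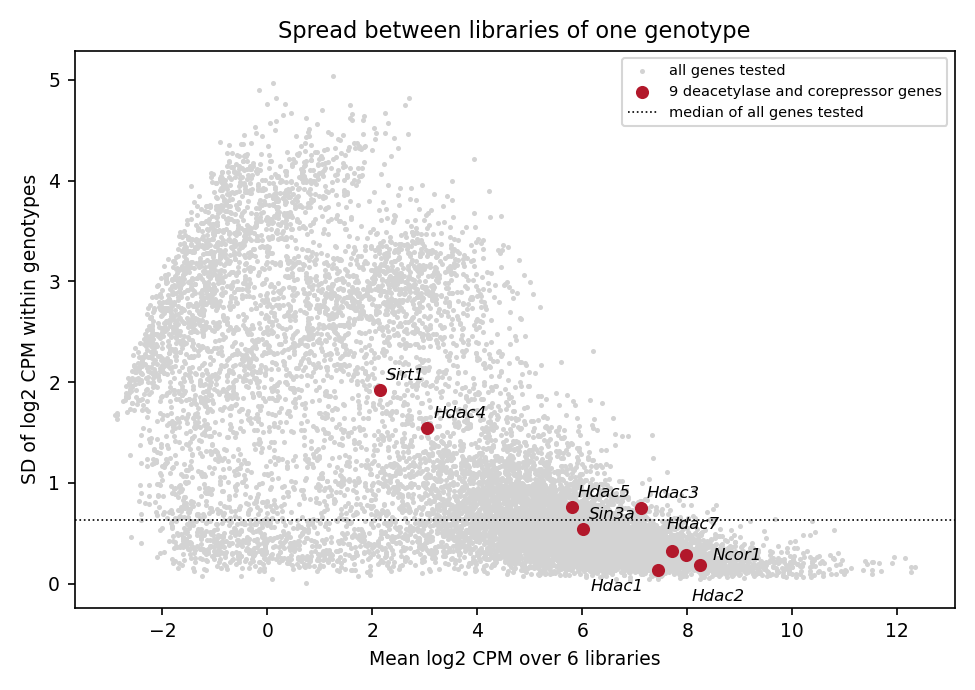
SD of log2 CPM within genotypes (y axis) against mean log2 CPM over 6 libraries (x axis) for all 12312 genes tested (grey) and the 9 genes (red); the dotted line is the median SD, 0.64. Hdac1, Ncor1, Hdac2 and Hdac7 lie low at the right, and Sirt1 and Hdac4 lie above the line at lower expression.

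Promoter windows of 250 bases upstream of a start site were read from RefSeq (GRCm38.p6) for 7 of the 9 genes, taking the farthest upstream start, with none for Hdac1 and Hdac3. The GC box (GGGCGG or CCGCCC on either strand) occurred in 6 of the 7 windows, against 32.7% of all 32851 windows. GC content ran from 50.8% in Sin3a to 79.2% in Sirt1, and all but Sin3a lay above the median of 52.4% over all windows. The motif shares here and below were not compared at like GC content. CpG dinucleotides ranged from 6 in Hdac7, equal to the median of all windows, to 39 in Sirt1. These ends of the range are printed, 5′ to 3′ on the minus strand of the gene, with GC boxes in capitals, Hdac7 from chr15:97844503-97844752 and Sirt1 from chr10:63339036-63339285.
Hdac7: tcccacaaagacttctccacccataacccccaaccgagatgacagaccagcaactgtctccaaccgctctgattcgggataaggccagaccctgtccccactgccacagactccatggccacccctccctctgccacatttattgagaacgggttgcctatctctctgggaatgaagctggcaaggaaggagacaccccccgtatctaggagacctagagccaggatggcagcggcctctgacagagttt
Sirt1: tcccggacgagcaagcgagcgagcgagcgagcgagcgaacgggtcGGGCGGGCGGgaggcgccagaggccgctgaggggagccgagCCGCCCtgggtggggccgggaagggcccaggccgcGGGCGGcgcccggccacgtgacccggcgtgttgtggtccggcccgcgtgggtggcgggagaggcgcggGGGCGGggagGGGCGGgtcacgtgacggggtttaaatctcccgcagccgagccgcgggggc
The CpG-rich windows belonged to steady and to variable genes alike, with 34 CpG in Ncor1 and 27 in Hdac2 as well as 39 in Sirt1. Hdac7 has 4 start sites in RefSeq with 5 to 25 CpG upstream, and the counts do not tell which was used. The core GCGTGGGCG bound by EGR factors, in 0.536% of all windows on either strand, shares letters with the GC box and was in none of the 7. The core GGAAA bound by NFAT factors was in 1, that of Sin3a, against 55.6% of all windows. Over all 12 RefSeq windows of these 7 genes, which partly overlap, it was in 6, the GC box was in 8 and the EGR core in 0.

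Other deacetylases and partners of the same complexes were read from 9 lists with 71 tested genes, of which edgeR called 0. Of these genes 3 (4.23%) had an unadjusted p under 0.05, against 5.45% of all genes tested, and 8 (11.3%) had separated libraries, against 13.9%. In 7 of the 8 the SKG libraries were higher (9.86% of the 71). Over all genes tested, 833 (6.77%) were separated with SKG higher and 877 with BALB/c higher. The median log2 fold change of the 71 was 0.07. Relatives of the 9 genes did not pass the test either. Hdac8, the remaining class I gene, had a log2 fold change of -0.86 and the class IIa gene Hdac9 had -0.98, with edgeR adjusted p of 0.988 and 0.991. Of 6 other sirtuins, Sirt7 had the lowest p, with a log2 fold change of 0.38.

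In the NCoR list of 4 tested partners, the median log2 fold change was 0.22 and the libraries of no gene were separated. The lowest p belonged to Cops2 (log2 fold change -0.43). The 15 tested SIN3 partners had a median of 0.12, with 3 genes separated and higher in SKG (6.77% of all genes tested were), namely Brms1l and, named after their values were seen, Sap30l and Suds3. Brms1l, a subunit that lies in the SIN3 complex with HDAC1, had 16.4, 17.3 and 31.8 CPM in BALB/c and 44.2, 35.9 and 50.3 CPM in SKG. Its libraries did not overlap, yet its log2 fold change of 0.99 (SE 0.44) did not pass with an edgeR adjusted p of 0.947. The CoREST list of 9 had a median of 0.24, with Kdm1a, a histone demethylase, at 0.57, and the 3 MiDAC genes had a median of 0.29, with Elmsan1 at 1.19 (SE 0.81). The Elmsan1 value rests on SKG replicate 3 with 78.6 CPM, against 11.2 to 19.1 CPM in the other 5 libraries.

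Among 17 tested genes for partners and kinases of class IIa enzymes (MEF2 factors, 14-3-3 proteins and kinases), the median log2 fold change was -0.05. Camk4, a calcium-dependent kinase that phosphorylates class IIa enzymes, had 262, 362 and 313 CPM in BALB/c and 463, 606 and 508 CPM in SKG. All SKG libraries were above all BALB/c libraries. The log2 fold change was 0.75 (SE 0.18) with an edgeR adjusted p of 0.645. DESeq2 without shrinkage gave 0.77 and an adjusted p of 0.0843 and so called Camk4. Camk4 was the only listed gene called at that setting, which called 2.58% of all genes it tested. With shrunken fold changes, DESeq2 called 0 of the listed genes. Mark3, another kinase of class IIa enzymes, had a log2 fold change of 1.21 (SE 0.37, edgeR adjusted p 0.830).

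Of 13 acetyltransferase genes, which encode the enzymes of the opposite reaction, 12 had a log2 fold change above 0, against 49.0% of all genes tested. These 12 values reached down to 0.006, the median of the 13 was 0.12 and none was called by edgeR. The libraries were separated for 2 of the 13 (15.4%), against 13.9% of all genes tested. The gene below 0, Crebbp (-0.66), was separated with higher levels in BALB/c and is named after its values were seen. Kat2a had 71.1, 91.7 and 124 CPM in BALB/c and 171, 169 and 142 CPM in SKG. The genotypes were separated, with a log2 fold change of 0.75 (SE 0.25) and an edgeR adjusted p of 0.833.

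**Figure D5:**
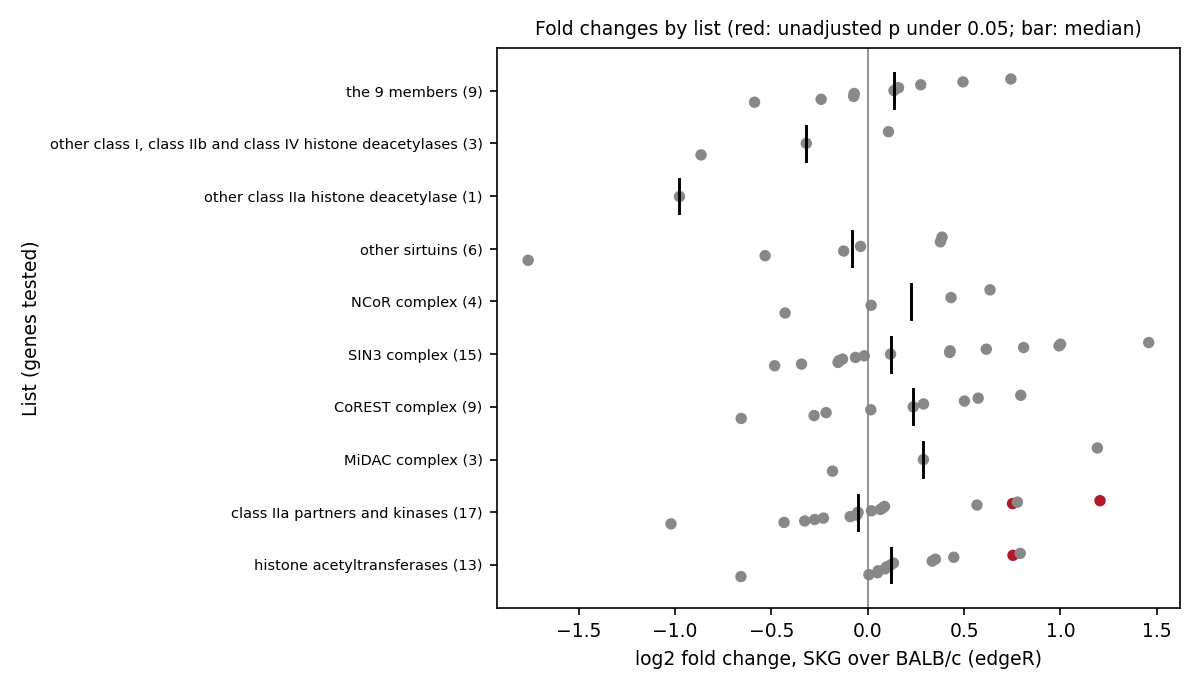
Log2 fold change of SKG over BALB/c (x axis) for every tested gene of the 9 genes at the top and of each list below (y axis, number tested in brackets); red points have an unadjusted p under 0.05 and the bar is the median. The medians of the lists with 4 or more genes lie between -0.08 and 0.24, and only Camk4, Mark3 and Kat2a are red. The smaller lists lie farther out, at -0.98 (Hdac9 alone), -0.32 (other class I, class IIb and class IV deacetylases) and 0.29 (MiDAC).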

How the data were processed

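The authors aligned reads of 50 nt to GRCm38 with HISAT2 (2.1.0) and counted those on exons, without strand and at a mapping quality of at least 10, with featureCounts (Subread 1.4.4) and Ensembl release 85. For preamplification the labels give 18 cycles (SMART-Seq v4) and the study's methods give 8 with another kit. The deposited table holds whole-number counts for 48397 genes, without normalization. The test was that of edgeR 4.0.16 under R 4.3.3 (filterByExpr, TMM, quasi-likelihood F test, all 6 libraries, no covariate, Benjamini-Hochberg over 12312 genes), with calls at the study's thresholds, an FDR of 0.1 and a 1.5-fold change. Standard errors were obtained by dividing the size of the log2 fold change by the square root of F, and 95% intervals use the t quantile. RPKM divide CPM by merged exon length (GENCODE M21). Log2 CPM used a prior count of 2. Copies were transcripts with at least 90% identity over 500 bases.

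The genes and lists were chosen with earlier results of these data known, and 1 gene of a list is not reported here. Named besides the 9 genes were the gene with the lowest p in each list, genes at an unadjusted p under 0.05, the paralogs Hdac8 and Hdac9, the 3 nearest profiles of Hdac3 and Hdac7, Zap70, and genes sharing reads or exons. Alternatives were DESeq2 1.42.0 with and without shrinkage, limma-voom (limma 3.58.1), other scaling factors and filters, 2 replicate blocks, each library left out, and other thresholds. The fits were tested on simulated data. A second deposited table with the authors' own DESeq2 comparison (means, fold changes, errors, statistics and p-values) was not used. PCR copies cannot be told from molecules in these counts.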

Additional observations from a re-analysis of the deposited data

How the results depend on the processing

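Over the 135 alternative fits of the 9 fold changes, 126 kept the direction, 9 reversed it and 0 were called, with a lowest adjusted p of 0.597 (Hdac7, DESeq2 without shrinkage). Hdac1, Hdac4, Hdac7, Ncor1 and Sin3a kept their direction in all 15 fits each. The log2 fold change of Hdac2 became -0.082 without SKG replicate 3. That of Hdac3 became 0.05 without BALB/c replicate 1 and 0.094 without SKG replicate 3, and that of Hdac5 became 0.22 and 0.32 without the same libraries. That of Sirt1 became 0.39 with limma-voom, 0.40 with the title number as a replicate block, 1.07 with the library number as a replicate block and 0.67 without BALB/c replicate 2. The cause was not tested. With libraries left out in turn, the values ranged from -0.15 to -0.02 for Hdac1, -0.082 to 0.29 for Hdac2, -0.57 to 0.094 for Hdac3, 0.23 to 1.12 for Hdac4, -0.30 to 0.32 for Hdac5, 0.36 to 0.69 for Hdac7, 0.06 to 0.24 for Ncor1, 0.00 to 0.50 for Sin3a and -1.14 to 0.67 for Sirt1. With the library number as a replicate block, that of Hdac4 moved to 1.55, that of Hdac5 to -0.72 and that of Hdac7 to 0.25, below its range above. SKG replicate 1 and BALB/c replicate 3 share no library number with the other genotype. That fit, also for Sirt1, thus compares only BALB/c replicates 1 and 2 with SKG replicates 2 and 3.

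Calls over all genes numbered 0 with edgeR and became 370 with DESeq2 without shrinkage (177 higher in SKG), 231 with shrunken fold changes (118 higher in SKG) and 2 without the filter on low counts, and were 0 with each library left out. The listed genes gave 1 call, Camk4, with DESeq2 without shrinkage and 0 otherwise. Libraries of the same number had residual correlations from -0.145 to 0.00289, so they were not treated as paired, and neither replicate block called any gene. The block by library number compares only BALB/c replicates 1 and 2 with SKG replicates 2 and 3 and could hardly call a gene. Libraries varied widely at like depth, which limits precision most for Hdac4 and Sirt1.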

Other observations

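Hdac6, which encodes a cytoplasmic class IIb deacetylase of tubulin and is none of the 9 genes, was singled out after its values were seen. The BALB/c libraries held 3, 827 and 1856 of its reads, and the SKG libraries 1909, 772 and 41. Its 2 lowest values were in BALB/c replicate 1 and SKG replicate 3, the libraries with the fewest genes detected, and the genotypes overlapped (log2 fold change 0.11, SE 1.79). Hdac11, the class IV gene, had 14 reads in BALB/c replicate 3 and 0 in the other 5 libraries and was not tested.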
